A study of Mus musculus with 9 samples.

Results

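Oligosaccharyltransferase (OST) is the enzyme complex of the endoplasmic reticulum (ER) membrane that transfers the finished glycan from its dolichol carrier onto asparagine residues of new proteins. Its 10 subunit genes described here were chosen by name, with no cut on measured values, but with earlier results of these data known. The genes are the catalytic Stt3a and Stt3b, the shared Rpn1, Rpn2, Ddost and Dad1, the STT3A-specific Ostc and Krtcap2, and the STT3B-specific Magt1 and Tusc3. They are 10 of 16398 genes in the deposited table, and all 10 had enough counts to be tested among 11739 genes. The series profiled mRNA by RNA-seq in BV2, a mouse microglial line made immortal with a retrovirus. The 9 libraries fall into 3 groups of 3 biological replicates each: cells given the siRNA named knockdown644, cells given the siRNA named knockdown878 (both with the genotype label Nus1 knockdown), and control cells named NC (genotype label WT). RNA was taken 48 h after the knockdown was begun, which the protocol describes as 24 h with siRNA and the transfection reagent RNAiMAX and a further 24 h in fresh medium. The labels do not say what the NC cells received, which bases of Nus1 each siRNA targets, or whether each replicate was its own transfection. The p-values therefore cover no more than the variation among these particular samples, which may be technical. All samples come from a single cell line, and both siRNA groups are set against the same 3 NC libraries.

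In mammalian cells OST exists as a pair of complexes that differ in their catalytic subunit. The STT3A complex sits beside the SEC61 channel and glycosylates proteins while they are being threaded into the ER, and the STT3B complex acts on sites that were passed over. Both need the dolichol-linked oligosaccharide as donor. Nus1 encodes the Nogo-B receptor, the partner of Dhdds in the prenyltransferase that builds the dolichol chain, and so contributes to the supply of the donor that OST consumes. In microglia, as in other cells with surface receptors and secreted factors, many receptors carry such N-glycans, TREM2 and CSF1R among them.

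The libraries held 19362331 to 20224707 estimated counts. Nus1 itself averaged 3.85 ± 0.351 CPM with siRNA 644 and 6.70 ± 2.58 CPM with siRNA 878, against 51.6 ± 1.66 CPM in NC (SD, n = 3 each; CPM is the count scaled to a common library size after TMM). All 12 microglia and macrophage markers were in the table, with a summed level of 2873 to 2995 FPKM with 644, 2292 to 2847 FPKM with 878 and 2603 to 2833 FPKM in NC (FPKM is the authors' length-scaled unit). Of all genes tested, 16.6% rose and 15.0% fell with 644 at an edgeR adjusted p under 0.05. With 878, 16.0% rose and 15.5% fell. Of the 12 markers, 1 rose and 2 fell with 644, and 4 fell with 878. The largest change was in Cx3cr1, the fractalkine receptor of homeostatic microglia, which averaged 1.14 FPKM with 644 and 0.900 FPKM with 878, against 7.55 FPKM in NC (log2 fold change of -2.65 with 644, edgeR adjusted p = 1.54e-06, and of -3.00 with 878, edgeR adjusted p = 1.14e-06). The summed level was carried by Cd68, at a mean of 1309 FPKM with 644, 1030 FPKM with 878 and 1386 FPKM in NC. The homeostatic markers P2ry12 and Tmem119 were near the floor, at mean levels between 0.297 and 1.41 FPKM in the 3 groups. Marker lists of neurons (4 of 4 genes in the table), astrocytes (2 of 3), oligodendrocytes (2 of 3), endothelial cells (3 of 3) and fibroblasts or pericytes (3 of 4) each summed to at most 1.47 FPKM in every library. One library stood apart: in siRNA 878 replicate 2, log2 CPM changed by -0.18 relative to its group for each 2-fold increase in the transcript length implied by the deposited counts and FPKM, against -0.083 to 0.12 in the other 8 libraries. Fold changes without this library are given for the members.

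Most OST subunit mRNAs were higher in both siRNA groups than in NC. With siRNA 644, 8 of the 10 members rose and none fell, and with siRNA 878, 7 rose and none fell (quasi-likelihood test of edgeR, with p adjusted by Benjamini-Hochberg under 0.05). Across all genes tested, 31.6% were called with 644 (16.6% higher and 15.0% lower) and 31.5% with 878 (16.0% higher and 15.5% lower). The members' median log2 fold change was 0.62 with 644, where the median of all genes was -0.01, and 0.71 with 878, where it was 0.00. No member fell at an unadjusted p under 0.05 in either comparison, and DESeq2 likewise called 8 members higher and 0 lower with 644 and 7 higher and 0 lower with 878. The 3 libraries lay wholly above the 3 NC libraries for 8 members with 644, where 28.0% of all genes did so, and for 7 members with 878, where 22.5% did so. No member lay wholly below NC, as 27.7% of all genes did with 644 and 22.6% with 878. In bulk RNA, a change in how many cells express a gene and a change in RNA per cell cannot be told apart.

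**Figure D1:**
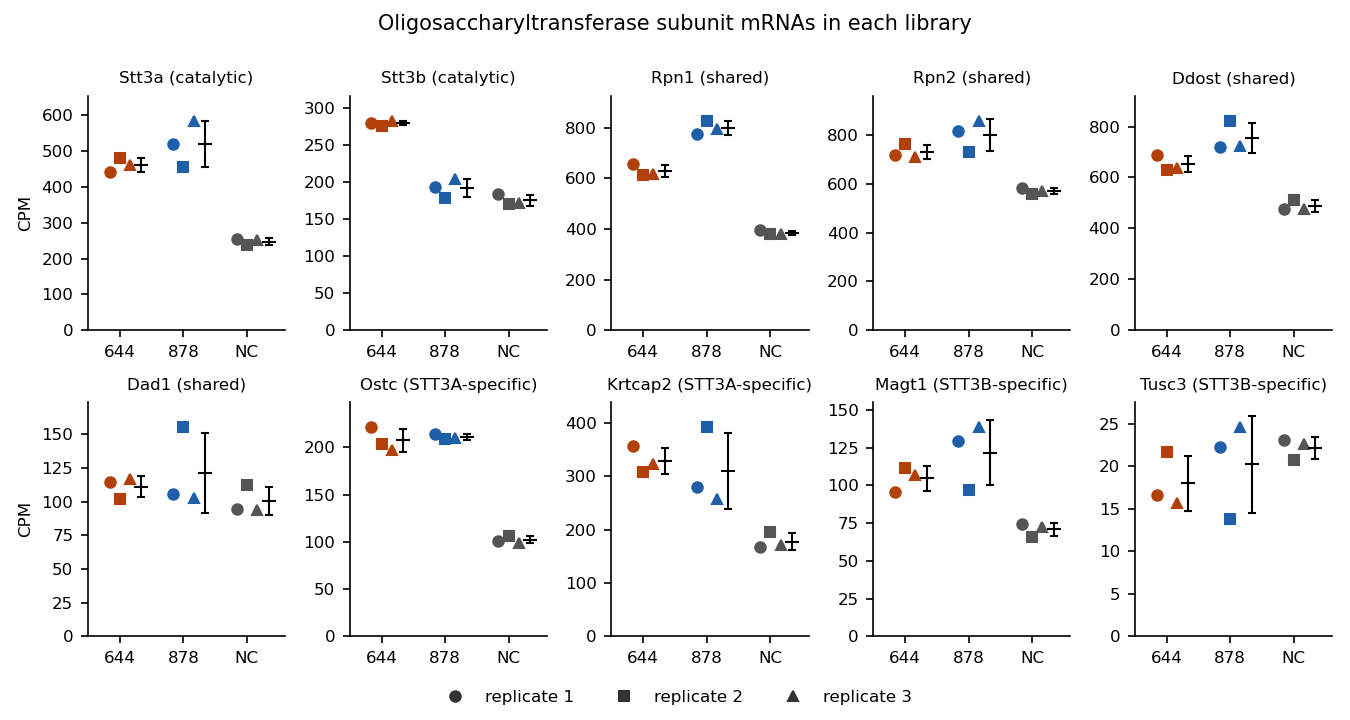
Level of each OST subunit mRNA in CPM (vertical axes, each starting at 0) in the 3 libraries of siRNA 644, siRNA 878 and NC, with symbols for replicate numbers and a bar for the mean ± SD. Stt3a, Rpn1, Rpn2, Ddost, Ostc, Krtcap2 and Magt1 lie above NC in all 6 siRNA libraries, Stt3b lies clearly above NC with 644 alone, and Dad1 and Tusc3 overlap NC.

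STT3A and STT3B are the alternative catalytic subunits, which hold the active site that joins glycan to asparagine. Stt3a (NCBI gene 16430; chromosome 9, 36729344 to 36767698, minus strand in the deposited coordinates) had 443, 482 and 462 CPM with siRNA 644, 520, 457 and 584 CPM with siRNA 878, and 254, 237 and 251 CPM in NC. Every siRNA library was above every NC library, and the siRNA groups overlapped each other. The log2 fold change of Stt3a was 0.90 with 644 (SE 0.0967, edgeR adjusted p = 0.000205), a 1.87-fold higher level, and 1.07 with 878 (SE 0.0970, edgeR adjusted p = 8.63e-05), a 2.10-fold higher level. Without 878 replicate 2 the value with 878 was 1.17 and still called.

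Stt3b (gene 68292; chromosome 9, 115242470 to 115310468, minus strand) behaved differently with the 2 siRNAs. It had 280, 276 and 282 CPM with siRNA 644, 192, 179 and 204 CPM with siRNA 878, and 184, 169 and 171 CPM in NC. The 644 libraries were within a narrow band above all others, whereas the 878 and NC libraries overlapped. Stt3b rose with 644, at a log2 fold change of 0.67 (SE 0.0726, edgeR adjusted p = 0.000207). Its log2 fold change with 878 was 0.13 (SE 0.0724, 95% interval -0.01 to 0.27, edgeR adjusted p = 0.197), which did not pass the test. That value passed when siRNA 878 replicate 2 was left out (0.19, adjusted p = 0.0403) and with offsets for length and GC content (0.17, adjusted p = 0.0236).

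The difference between the siRNAs was tested directly. Stt3b was lower with 878 than with 644, at -0.54 on the log2 scale (adjusted p = 0.0121 in edgeR, SE 0.0724), and all 3 libraries of siRNA 878 were below all 3 of siRNA 644, as was so for 10.6% of all genes. Calls in this comparison were rare, at 1.51% of all genes in either direction. The sign and size of the Stt3b difference were stable, between -0.59 and -0.48 over the fits that each left out 1 library. Its adjusted p rose above the threshold without any one of the 644 libraries (0.0741, 0.0621 and 0.0907 for replicates 1, 2 and 3), without 878 replicate 1 (0.0741), in a fit of these 2 groups alone (0.107) and with the replicate number as a block (0.0792). In the authors' deposited table the same comparison had a log2 fold change of -0.53 and a q-value of 5.41e-05.

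The promoter windows of this pair are shown because the catalytic genes differed in response to the siRNAs. They are 300-base windows around annotated gene starts, from RefSeq of GRCm38.p6, printed 5' to 3' along each gene, with CCAAT boxes and CCACG words on either strand in capitals (written ATTGG and CGTGG on the opposite strand). The Stt3a window is chr9:36767573-36767872 on the minus strand, and the Stt3b window is chr9:115310419-115310718 on the minus strand.
Stt3a: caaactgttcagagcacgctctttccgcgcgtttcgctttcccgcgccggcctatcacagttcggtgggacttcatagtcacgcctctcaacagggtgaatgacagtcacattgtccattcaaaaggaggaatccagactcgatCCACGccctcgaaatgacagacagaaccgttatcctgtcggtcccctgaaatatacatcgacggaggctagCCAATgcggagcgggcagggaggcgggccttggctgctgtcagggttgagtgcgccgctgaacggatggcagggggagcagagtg
Stt3b: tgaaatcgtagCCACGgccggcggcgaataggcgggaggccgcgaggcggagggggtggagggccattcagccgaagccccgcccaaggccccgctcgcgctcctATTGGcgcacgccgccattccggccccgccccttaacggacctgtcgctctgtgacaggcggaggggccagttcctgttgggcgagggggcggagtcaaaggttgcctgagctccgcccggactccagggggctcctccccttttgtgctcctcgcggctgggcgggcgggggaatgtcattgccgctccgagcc
Each holds 1 CCAAT box and 1 CCACG word. In Stt3a both words lie on the gene's own strand, and in Stt3b the CCAAT box is on the opposite strand.

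Within each library, the ratio of Stt3a to Stt3b was taken from FPKM, so that library scaling cancels and each gene's own length is divided out. Length or GC trends that differ between libraries remain, and the GC content is 40.5% for Stt3a and 49.0% for Stt3b. With the offsets for length and GC content, the log2 fold change with 644 was 1.19 for Stt3a and 0.73 for Stt3b. The ratio was not tested with these offsets. The ratio was 1.80, 2.00 and 1.85 with 644, 3.09, 2.89 and 3.30 with 878, and 1.59, 1.60 and 1.69 in NC. Stt3a therefore made up 64.2 to 66.6% of the summed catalytic mRNA with 644, 74.3 to 76.8% with 878 and 61.4 to 62.8% in NC, and the 3 ranges did not overlap. The mean log2 ratio over the 6 siRNA libraries exceeded that of the 3 NC libraries by 0.57 (exact permutation test, two-sided, p = 0.0238, the smallest p this design allows; adjusted over 3 ratios, p = 0.0357). The adjusted p was 0.111 by exact permutation within replicate numbers. It passed in 1 of the 9 tests that each left out 1 library (without 878 replicate 2, a difference of 0.52) and was 0.0536 to 0.107 in the other 8, which have fewer arrangements to permute. Most of the difference came from 878, at 0.93 for that siRNA alone and 0.21 for 644 alone, and 3 libraries against 3 cannot give a p below 0.1.

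**Figure D2:**
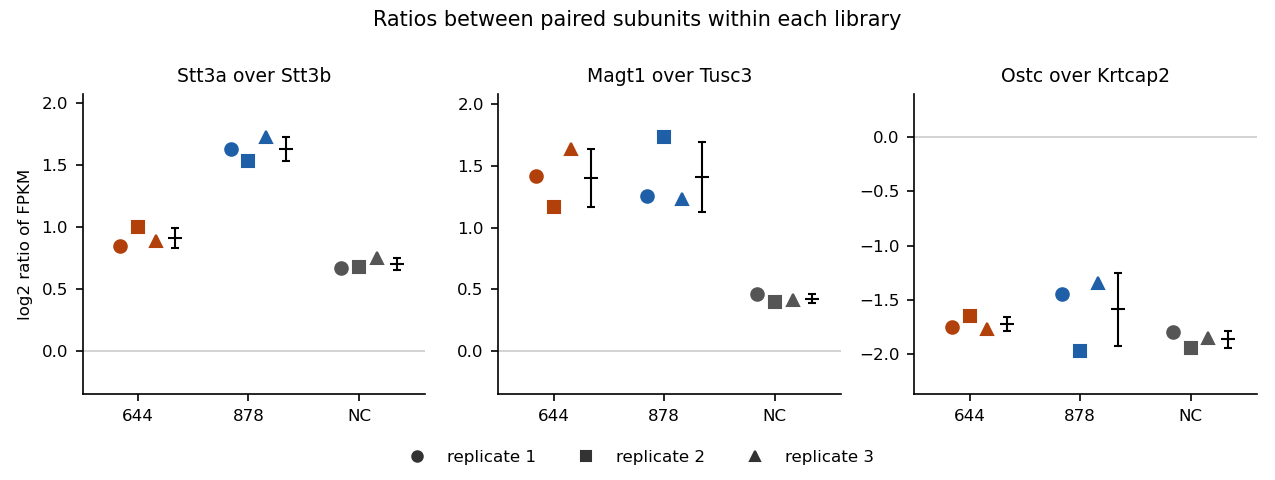
Log2 ratio of FPKM between paired subunits in each library (vertical axes) for siRNA 644, siRNA 878 and NC, with the mean ± SD of 3 libraries. The Stt3a to Stt3b ratio averages 0.91 with 644, 1.63 with 878 and 0.70 in NC; the Magt1 to Tusc3 ratio is raised alike in both siRNA groups; the Ostc to Krtcap2 ratio overlaps between siRNA 878 and NC.

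The shared subunits hold both complexes together. Rpn1 encodes ribophorin I, a large subunit that presents some membrane proteins to the catalytic site. Rpn1 (gene 103963; chromosome 6, 88084473 to 88105304, plus strand) had 659, 613 and 617 CPM with 644, 774, 827 and 797 CPM with 878, and 395, 382 and 381 CPM in NC. The 3 groups were fully separate, with 878 highest and NC lowest. The log2 fold change of Rpn1 was 0.71 with 644 (SE 0.0689, edgeR adjusted p = 0.000128) and 1.05 with 878 (SE 0.0692, edgeR adjusted p = 1.59e-05), and with 878 it was 1.03 without 878 replicate 2. Rpn1 was higher with 878 than with 644 by 0.34 (SE 0.0686, edgeR adjusted p = 0.0492), and a library range wholly above that of 644 was seen for 7.98% of all genes. That call lay at the threshold: the difference stayed between 0.33 and 0.38 when libraries were left out one at a time, and the adjusted p was 0.0124 without 878 replicate 2, and from 0.0845 to 0.233 without any other single library. It was 0.0789 with no low-count filter, 0.208 in a fit of these 2 groups alone and 0.195 with the replicate block.

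Rpn2 (ribophorin II) and Ddost (OST48) are the other large shared subunits. Rpn2 (gene 20014; chromosome 2, 157279098 to 157326318, plus strand) had 717, 763 and 708 CPM with 644, 814, 728 and 857 CPM with 878, and 581, 557 and 568 CPM in NC. All siRNA libraries were above NC by a smaller margin than for Rpn1. The log2 fold change of Rpn2 was 0.36 with 644 (SE 0.0814, edgeR adjusted p = 0.0101) and 0.49 with 878 (SE 0.0815, edgeR adjusted p = 0.00198), and with 878 it was 0.56 and still called without 878 replicate 2. The call with 644 was lost when library sizes were used without TMM (0.32, adjusted p = 0.0588), in limma on log2(FPKM + 1) (0.33, adjusted p = 0.0510) and log2(FPKM + 0.1) (0.33, adjusted p = 0.0519), and with offsets for GC content and length (0.26, adjusted p = 0.0697).

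Ddost (gene 13200; chromosome 4, 138304738 to 138312619, plus strand) had 690, 630 and 639 CPM with 644, 719, 822 and 722 CPM with 878, and 475, 513 and 475 CPM in NC. The groups did not overlap, and the highest Ddost library was 878 replicate 2. Its log2 fold change was 0.42 with 644 (SE 0.0836, edgeR adjusted p = 0.00527) and 0.63 with 878 (SE 0.0838, edgeR adjusted p = 0.000647). The 0.21 between the siRNAs did not pass the test (95% interval 0.04 to 0.37, edgeR adjusted p = 0.282). Without 878 replicate 2, the log2 fold change of Ddost with 878 was 0.57 and still called. Zfp984, on the opposite strand, overlaps the coordinates of Ddost at a mean of 266.9 estimated counts per library.

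Dad1 encodes a small membrane subunit named for its protection of cells from apoptosis. It is recorded as gene 13135 on chromosome 14, 54235485 to 54254067; the table puts it on the plus strand and RefSeq on the minus strand. Dad1 had 115, 102 and 116 CPM with 644, 106, 155 and 103 CPM with 878, and 94.4, 113 and 94.1 CPM in NC. The groups overlapped, and the library of 155 CPM was again 878 replicate 2. Its log2 difference was 0.15 with 644 (95% interval -0.17 to 0.46, edgeR adjusted p = 0.510) and 0.27 with 878 (95% interval -0.04 to 0.58, edgeR adjusted p = 0.231), and without 878 replicate 2 the value with 878 was 0.06. Dad1 was thus the only shared member of the 4 that passed the test with neither siRNA.

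A pair of very small shared subunits lies outside the 10 genes. Neither passed the test with either siRNA in the edgeR fit of all 9 libraries without offsets for length and GC content. Ost4, known from yeast to steady the catalytic subunit, averaged 67.5 ± 4.47 CPM with 644, 73.2 ± 15.9 CPM with 878 and 79.3 ± 7.52 CPM in NC (SD, n = 3 each). Tmem258 averaged 68.3 ± 9.61 CPM with 644, 73.1 ± 23.6 CPM with 878 and 48.2 ± 5.99 CPM in NC. Its log2 difference was 0.50 with 644 (edgeR adjusted p = 0.102) and 0.60 with 878 (edgeR adjusted p = 0.0594). At an unadjusted p under 0.05, 1 of the 2 genes was higher with each siRNA, and DESeq2 called 0 with 644 and 1 with 878, which was Tmem258. Other edgeR fits called both genes. Without 878 replicate 2, Ost4 was lower at -0.24 with 644 (adjusted p = 0.0400) and -0.30 with 878 (adjusted p = 0.0299), and Tmem258 was higher at 0.50 with 644 (adjusted p = 0.00505). With the offsets for length and GC content, Ost4 was lower at -0.34 with 644 and -0.23 with 878, and Tmem258 was higher at 0.32 with 644 and 0.43 with 878. Tmem258 was also called higher with 644 in a fit of those 2 groups alone, and with 878 without 878 replicate 1 or replicate 3.

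OSTC and KRTCAP2 (also called DC2 and KCP2) belong to the STT3A complex, where they join it to the protein-conducting channel. Ostc (gene 66357; chromosome 3, 130695917 to 130709444, minus strand) had 221, 204 and 197 CPM with 644, 214, 208 and 210 CPM with 878, and 101, 106 and 99.0 CPM in NC. The siRNA libraries formed a tight group about 2-fold above NC. Ostc had a log2 fold change of 1.02 with 644 (SE 0.0697, edgeR adjusted p = 1.81e-05) and 1.05 with 878 (SE 0.0698, edgeR adjusted p = 1.73e-05). The siRNAs differed by 0.02 (95% interval -0.11 to 0.16, edgeR adjusted p = 0.926). Ostc had the highest fold change of the 10 members with 644, and Stt3a had the highest with 878. Leaving out 878 replicate 2 gave 1.06 for Ostc with 878.

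Krtcap2 (gene 66059; chromosome 3, 89245904 to 89249729, plus strand) had 356, 308 and 322 CPM with 644, 280, 392 and 258 CPM with 878, and 168, 195 and 170 CPM in NC. Both siRNA groups were above NC in every library, and the 878 group was spread by its replicate 2. Krtcap2 had a log2 fold change of 0.89 with 644 (SE 0.153, edgeR adjusted p = 0.00262) and 0.80 with 878 (SE 0.153, edgeR adjusted p = 0.00421). Without 878 replicate 2 the value with 878 was 0.60 and still called. Trim46, on the opposite strand, overlaps the coordinates of Krtcap2 at a mean of 508.6 estimated counts per library. How far the 2 genes overlap is not reported here. The strand setting is not given in the sources used, so it is not known how reads from the overlap were assigned.

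The Krtcap2 promoter window is shown because it was the only one among the members to hold a full stress-response word. Windows were found in RefSeq of GRCm38.p6 for 8 members: Stt3a, Stt3b, Rpn1, Rpn2, Ddost, Dad1, Krtcap2 and Magt1. The window printed is chr3:89246223-89246522 on the plus strand, with the ER stress response element II in capitals, that is ATTGG, any 1 base and CCACG.
Krtcap2: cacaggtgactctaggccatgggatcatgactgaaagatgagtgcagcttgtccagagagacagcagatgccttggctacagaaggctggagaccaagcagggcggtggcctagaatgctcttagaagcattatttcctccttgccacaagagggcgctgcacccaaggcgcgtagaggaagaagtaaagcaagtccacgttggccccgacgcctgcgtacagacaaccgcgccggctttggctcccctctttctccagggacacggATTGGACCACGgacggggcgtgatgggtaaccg
The element begins 17 bases after the gene start of this window, at 89246490. Another Krtcap2 window, chr3:89246188-89246487, ends before the element. Both windows begin after the Krtcap2 start of 89245904 in the deposited coordinates. Of 32851 windows of the same length in the table, 12 (0.0365%) hold this word on either strand.

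For comparison, 30-base stretches are set beside it from Herpud1, Hspa5 and Alg12, with a full element in capitals. These genes were picked by hand from the ER stress and glycan assembly lists. Calr, also picked, holds an ER stress response element too and is not printed. Whether other genes of the lists hold an element is not reported here. Herpud1 (chr8:94386368-94386397, plus strand) holds the same element II, while Hspa5 (chr2:34772020-34772049, plus strand) and Alg12 (chr15:88819514-88819543, minus strand) hold the longer ER stress response element, that is CCAAT, any 9 bases and CCACG.
Krtcap2: gggacacggATTGGACCACGgacggggcgt
Herpud1: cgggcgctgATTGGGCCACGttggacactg
Hspa5: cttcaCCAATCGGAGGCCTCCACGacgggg
Alg12: gtggaCCAATTGAGGCTCGCCACGagaagc
The longer element was in 39 of 32851 windows (0.119%) and in 0 of the 8 members. Nor did any of the 8 hold TGACGTGG, the unfolded protein response element (0.676% of all windows), or TGATGNAA, the C/EBP-ATF response element (3.97%). The short words were common: CCAAT, which is part of both ER stress elements, was in 37.4% of all windows and in windows of all 8 members. CCACG, also part of both, was in 32.8% of all windows and in windows of 6 of the 8, not of Rpn2 or Magt1. Some genes have several windows, and a match is a description of letters and not of binding.

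MAGT1 and TUSC3 are alternative oxidoreductase subunits of the STT3B complex, which hold substrate cysteines while a site is glycosylated. Magt1 (gene 67075; chromosome X, 105968084 to 106011802, minus strand) had 95.6, 112 and 107 CPM with 644, 129, 97.3 and 138 CPM with 878, and 74.3, 65.6 and 72.5 CPM in NC. All siRNA libraries were above NC, and in the 878 group replicate 2 was lowest. Its log2 fold change was 0.56 with 644 (SE 0.132, edgeR adjusted p = 0.0117) and 0.78 with 878 (SE 0.133, edgeR adjusted p = 0.00225). The call with 644 was lost without NC replicate 2 (0.51, adjusted p = 0.0545), and without 878 replicate 2 the value with 878 was 0.93.

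Tusc3 (gene 80286; chromosome 8, 39005351 to 39167050, plus strand) was the least abundant member, at 244 to 489 estimated counts per library. It had 16.6, 21.7 and 15.7 CPM with 644, 22.3, 13.8 and 24.6 CPM with 878, and 23.1, 20.8 and 22.6 CPM in NC. The groups overlapped, and the lowest library was 878 replicate 2. Its log2 difference was -0.30 with 644 (95% interval -0.71 to 0.11, edgeR adjusted p = 0.306) and -0.13 with 878 (95% interval -0.54 to 0.28, edgeR adjusted p = 0.676). Without 878 replicate 2 the value with 878 turned to 0.09.

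The within-library ratio of Magt1 to Tusc3, from FPKM, was 2.67, 2.24 and 3.10 with 644, 2.39, 3.33 and 2.35 with 878, and 1.38, 1.32 and 1.33 in NC. Every siRNA library was above every NC library. Length or GC trends that differ between libraries remain in this ratio too. The GC content is 40.7% for Magt1 and 48.1% for Tusc3, and the implied lengths are 4082 and 1760 bases. None of the 3 ratios was tested with the offsets for length and GC content. The mean log2 ratio was higher by 0.98 over the 6 siRNA libraries (exact permutation test, two-sided, p = 0.0238; adjusted over 3 ratios, p = 0.0357), and by 0.98 with each siRNA taken alone. Here too the adjusted p was 0.111 by exact permutation within replicate numbers, and 0.0536 to 0.107 in 8 of the 9 tests that each left out 1 library, the exception being that without 878 replicate 2 (a difference of 0.92). As for Stt3a to Stt3b, the unadjusted p was the smallest possible in all 9, so the adjustment over 3 ratios decided which test passed. Within the STT3A-specific pair the ratio of Ostc to Krtcap2 was 0.298, 0.319 and 0.294 with 644, 0.368, 0.255 and 0.394 with 878, and 0.288, 0.260 and 0.278 in NC. Its mean log2 ratio differed by 0.21, which did not pass the test (exact permutation test, two-sided, p = 0.143; adjusted p = 0.143). Without 878 replicate 2 that difference was 0.27 and passed (exact permutation test, adjusted p = 0.0357).

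**Figure D3:**
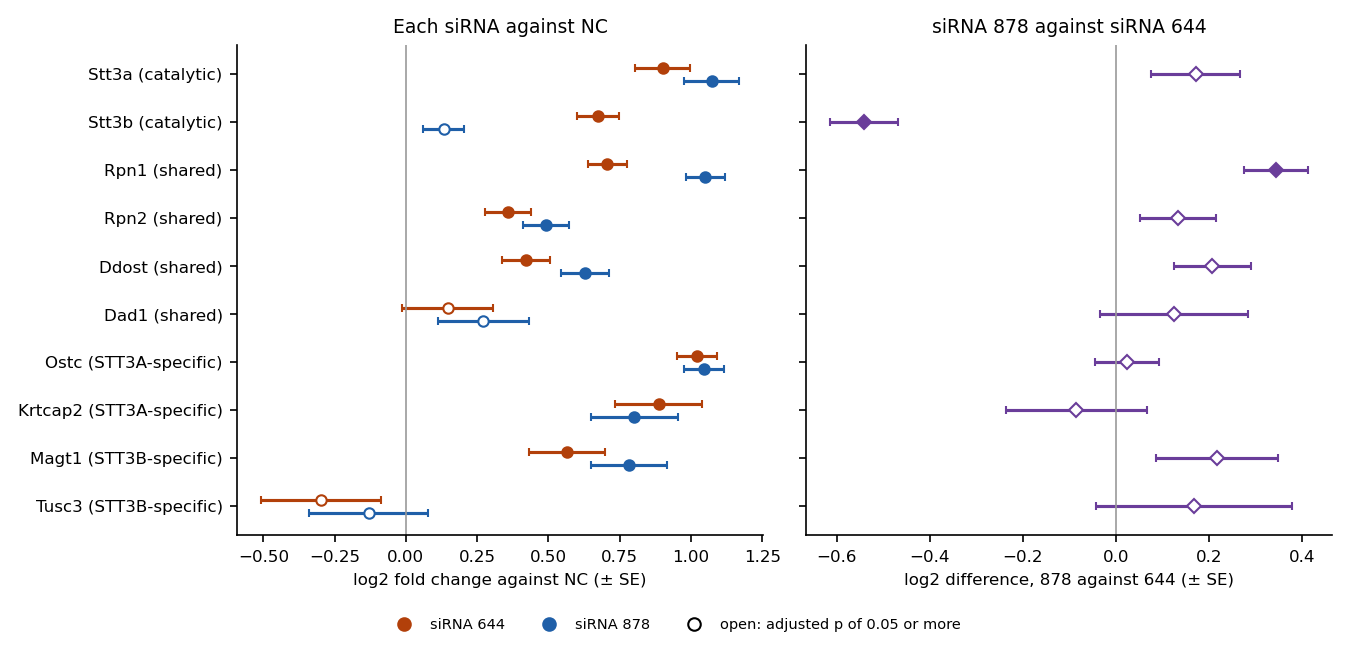
Log2 fold change of each OST subunit (horizontal axes, ± SE from edgeR) with siRNA 644 and siRNA 878 against NC on the left, and with 878 against 644 on the right; filled symbols passed an adjusted p of 0.05. On the left, Dad1 and Tusc3 are open for both siRNAs and Stt3b is open for 878, and on the right Stt3b (-0.54) and Rpn1 (0.34) are filled.

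Between the siRNAs, 1 member rose with 878 relative to 644 (Rpn1), 1 fell (Stt3b) and 8 did not pass the test. All genes tested were called higher in 0.315% and lower in 1.19% of cases. For the other members the log2 difference of 878 against 644 ranged from -0.08 for Krtcap2 to 0.22 for Magt1. Stt3a differed by 0.17 (95% interval -0.02 to 0.36, edgeR adjusted p = 0.462) and Magt1 by 0.22 (95% interval -0.04 to 0.48, edgeR adjusted p = 0.506). When 878 replicate 2 was left out, 4 members were called: Stt3b (-0.48, adjusted p = 0.00344), Rpn1 (0.33, adjusted p = 0.0124), Stt3a (0.27, adjusted p = 0.0415) and Magt1 (0.37, adjusted p = 0.0266). The same omission raised the genes called between the siRNAs to 2072, against 177 in the fit of all 9 libraries.

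The members differed from one another in how 878 replicate 2 departed from its group. By implied length, the shortest mRNAs were higher in that library than the mean of 878 replicates 1 and 3 on the log2 CPM scale, by 0.54 for Krtcap2 (486 bases) and 0.57 for Dad1 (650 bases). Longer ones were mostly lower, with a difference of -0.46 for Magt1 (4082 bases), -0.27 for Stt3a (3785 bases), -0.15 for Stt3b (4330 bases) and -0.76 for Tusc3 (1760 bases). Ostc (1013 bases) differed by -0.03, Ddost (2054 bases) by 0.19, Rpn2 (2342 bases) by -0.20 and Rpn1 (3593 bases) by 0.08. The order depends on the length used: in the longest GENCODE coding transcript, Dad1 has 3491 bases, Krtcap2 1172 bases and Ostc, the shortest, 1067 bases. The part of length in these differences was not tested.

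**Figure D4:**
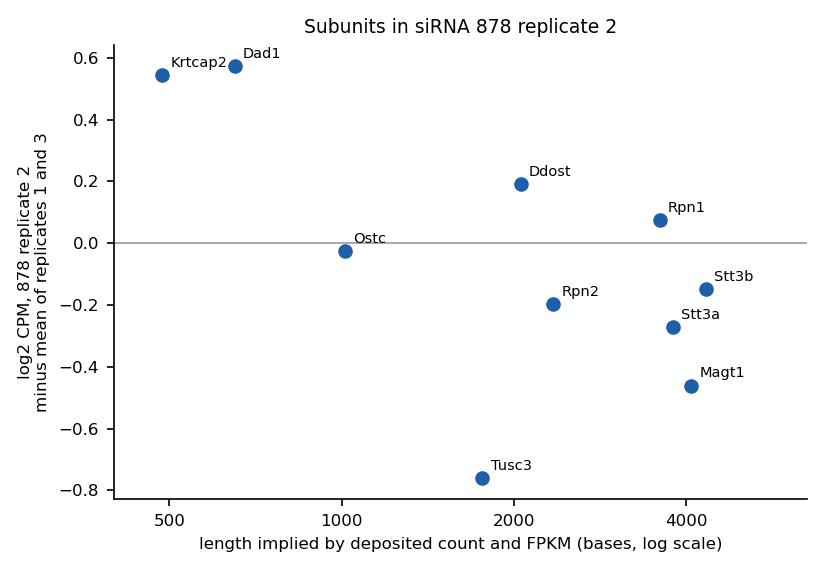
Log2 CPM of each OST subunit in siRNA 878 replicate 2 minus the mean of 878 replicates 1 and 3 (vertical axis) against the transcript length implied by the deposited values in bases (horizontal axis, log scale). Krtcap2 and Dad1, the shortest by this measure, are highest at 0.54 and 0.57, and Tusc3 is lowest at -0.76.

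Compared per length, the subunits spanned a wide range of levels in every group. The order below depends on the length behind FPKM, implied as 486 bases for Krtcap2 and 650 bases for Dad1. Their longest GENCODE coding transcripts have 1172 and 3491 bases. In mean CPM, which is not scaled by length, Krtcap2 had 178 in NC, below Rpn2 (569), Ddost (488), Rpn1 (386) and Stt3a (247). In mean FPKM, Krtcap2 was highest, at 672 with 644, 613 with 878 and 377 in NC. Ddost came next with 317 with 644, 357 with 878 and 244 in NC, beside Rpn2 with 312 with 644, 335 with 878 and 249 in NC, and these neighbours overlapped in each group. Behind them, Ostc averaged 204 FPKM with 644, 203 FPKM with 878 and 104 FPKM in NC. Rpn1 averaged 175 FPKM with 644, 217 FPKM with 878 and 110 FPKM in NC, and Dad1 170 FPKM with 644, 180 FPKM with 878 and 159 FPKM in NC. Dad1 thus stood above Rpn1 and Ostc in NC and below them in both siRNA groups, although in the siRNA groups its range overlapped that of its nearest neighbour, and with 878 the ranges of Rpn1 and Ostc overlapped too. Stt3a averaged 121 FPKM with 644, 135 FPKM with 878 and 67.5 FPKM in NC. Below it came Stt3b, at 64.3 FPKM with 644, 43.3 FPKM with 878 and 41.6 FPKM in NC. Magt1 averaged 25.8 FPKM with 644, 29.4 FPKM with 878 and 17.7 FPKM in NC. Tusc3 was last, at 9.90 FPKM with 644, 11.5 FPKM with 878 and 13.2 FPKM in NC.

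The neighbouring steps of N-glycosylation were read from lists of genes in the same pathway. Of all genes tested, 16.6% rose and 15.0% fell with 644, and 16.0% rose and 15.5% fell with 878. These shares stand beside the counts of every list below. Of 5 dolichol synthesis genes, 3 rose with 644 and 4 with 878, and 1 fell with each, which was Nus1 itself; the count of 4 was 1 without NC replicate 1 and 2 without NC replicate 3. Dolpp1, a phosphatase that recycles the dolichol carrier, had a log2 fold change of 0.54 with 644 (edgeR adjusted p = 0.00469) and 0.71 with 878 (edgeR adjusted p = 0.00114). Srd5a3, a reductase of dolichol synthesis, had 0.68 with 644 and 0.47 with 878.

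Of 18 genes that assemble the lipid-linked oligosaccharide, 10 rose with 644 (median 0.30) and 8 with 878 (median 0.41), and 0 fell in edgeR. At an unadjusted p under 0.05, 2 were lower with 644 and 0 with 878. DESeq2 called 0 lower with either siRNA, and limma with a pseudocount of 0.1 called 1 lower with 644. Other edgeR fits also called genes lower with 644: 3 without 878 replicate 2, 2 in the fit of those 2 groups alone, 1 with the offsets and 1 without 644 replicate 2. In the edgeR fit used throughout, the lowest log2 fold changes with 644 were -0.73 for Alg10b (adjusted p = 0.201) and -0.68 for Alg13 (adjusted p = 0.0668). With 878 these genes had -0.09 and -0.37, and neither was called. The mannosyltransferase Alg12 had a log2 fold change of 1.50 with 644 (edgeR adjusted p = 7.71e-06) and 1.59 with 878 (edgeR adjusted p = 5.28e-06). The mannosyltransferase Alg2 had 1.40 with 644 and 1.21 with 878, and Alg5, which makes dolichol-linked glucose, averaged 154 ± 7.63 CPM with 644 and 177 ± 33.5 CPM with 878, against 70.1 ± 6.25 CPM in NC (SD, n = 3 each). The 644 count was 5 without 644 replicate 3, without NC replicate 1 or without NC replicate 3, 6 without 644 replicate 1, and 6 with the replicate block.

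Of 12 genes of the translocon, the channel beside which the STT3A complex works, 7 rose and 1 fell with 644 (median 0.56), and 8 rose and 0 fell with 878 (median 0.70; 0 lower at an unadjusted p under 0.05 and by DESeq2). The channel subunit Sec61a1 had a log2 fold change of 1.19 with 644 (edgeR adjusted p = 0.000312) and 1.44 with 878 (edgeR adjusted p = 0.000113). The translocating chain-associated protein gene Tram1 had 1.33 with 644 and 1.26 with 878, and Ssr4, of the TRAP complex, had 0.99 with 644 and 0.91 with 878. The gene that fell was Sec61a2, a second form of the channel subunit, at -0.27 (edgeR adjusted p = 0.0440); it was named after its value was seen, and the call was lost without any 644 library, without 878 replicate 1, without NC replicates 1 or 3, with library sizes alone, with no low-count filter, with the replicate block and with the offsets for length and GC content.

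Of 9 tested genes that act first on the transferred glycan, 5 rose with 644 (median 0.38) and 6 with 878 (median 0.57). In edgeR over all 9 libraries without offsets 0 fell, as was so at an unadjusted p under 0.05 and by DESeq2. With the offsets, 8 rose and 1 fell with 644. Calr, the lectin chaperone calreticulin, had a log2 fold change of 1.66 with 644 (edgeR adjusted p = 1.23e-05) and 1.64 with 878 (edgeR adjusted p = 1.34e-05). The glucosidase II subunit Prkcsh had 1.18 with 644 and 1.32 with 878, and the folding sensor Uggt1 had 0.84 with 644 and 0.85 with 878. All 15 ER chaperones and unfolded protein response markers rose with each siRNA, with medians of 2.16 with 644 and 2.17 with 878, both above the largest change of any OST member. The transcription factor Ddit3 averaged 299.9 ± 46.2 CPM with 644 and 247 ± 76.3 CPM with 878, against 18.8 ± 2.99 CPM in NC (SD, n = 3 each). Herpud1, of ER-associated degradation, had a log2 fold change of 2.93 with 644 and 2.52 with 878, and the chaperone Hspa5 had 2.76 with 644 and 2.66 with 878. The lists' changes come from the same libraries and the same NC group as the members', so they are not independent of them.

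**Figure D5:**
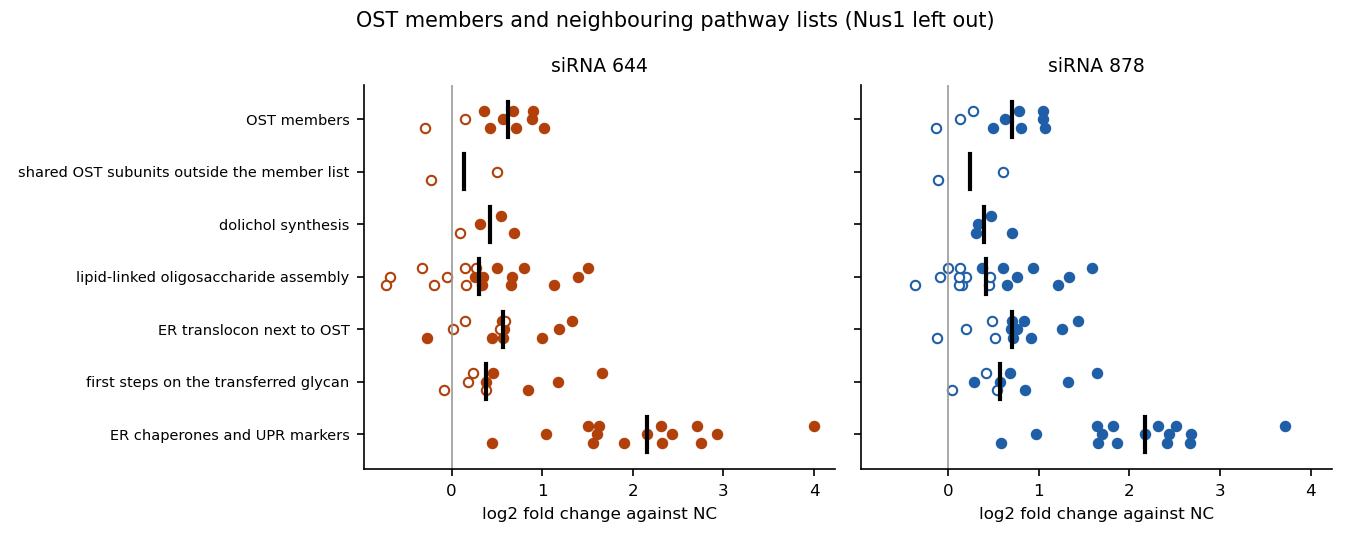
Log2 fold change (horizontal axes, shared scale) of the 10 OST members and of each neighbouring list, 1 point per tested gene, with siRNA 644 on the left and siRNA 878 on the right; filled points passed an adjusted p of 0.05, the bar is the median, and Nus1 is left out of the dolichol list. The OST members lie between -0.30 and 1.07, while the ER chaperones and stress markers have medians of 2.16 with 644 and 2.17 with 878.

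Some other genes followed individual members closely across the 9 libraries, measured as the root mean square difference in log2 CPM after each gene was centred on its NC mean. The nearest to Stt3a were Slc20a1 (0.0399), Slc24a5 (0.0592), Arfgap3 (0.0689), Mia2 (0.0875) and Cr1l (0.0878). For Stt3b they were Poglut3 (0.0459), Stard6 (0.0858), Vwa8 (0.0880), Abcb6 (0.0900) and Stk10 (0.0902). For Ostc they were Arpc5l (0.0837), Slc39a11 (0.0853), Cmtm3 (0.0864), Cr1l (0.0920) and Sec11a (0.0944). Likeness of this kind describes these libraries alone.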

How the data were processed

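TRIzol extraction of RNA was followed by preparation with an mRNA library kit, 2 µg of total RNA going into each library, per the labels' protocols. The authors deposited 1 table, holding an estimated count for every gene and library and an FPKM value, which they scaled by length and depth. The estimated counts were left unrounded (37.4% of those above 0 differed from a whole number by more than 1e-09). The table also has the authors' own log2 fold changes and q-values, deposited by them for each pair of groups. Per the submitters' processing notes, the build was mm39 and the tools included Bowtie2 2.4.5 and DESeq2 1.34.0. The counter, annotation and strand setting are not given in these sources. In 6 members (Stt3a, Stt3b, Rpn1, Dad1, Ostc and Tusc3) estimated counts were whole in all 9 libraries, while the other members had fractions. Matching by gene ID to RefSeq of GRCm38.p6 gave 16347 genes, of which 73.7% had equal coordinates, so the build behind the table's positions is not settled. Another 9 columns, of TPM, were not used.

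For the tests, estimated counts were rounded, and filterByExpr (at least 10 counts, total of at least 15) kept 11739 genes with 99.96% or more of each library's counts. Quasi-likelihood tests were made with edgeR 4.0.16 under R 4.3.3, with TMM factors of 0.898 to 1.04. A single model held the 9 samples and had group as its sole term. P-values were adjusted by Benjamini-Hochberg across all genes tested, and a gene was called under 0.05. The SE was taken from the log2 fold change and its F statistic, and the 95% intervals are a normal approximation from that SE. With so few samples, such intervals are narrower than those of the test itself. The common biological coefficient of variation came to 14.9%. FPKM ratios were tested by exact permutation (SciPy 1.17.1), adjusted over 3 ratios. Alternatives were DESeq2 1.42.0, RLE, unscaled library sizes, no filter on low counts, a minimum of 1 CPM in 3 samples, models of 2 groups, a replicate block, limma 3.58.1 on log2(FPKM + 1) or log2(FPKM + 0.1), offsets for length and GC content (known for 97.5% of genes and all 10 members), and omission of each library.

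The members and lists were chosen with earlier results of these data known. All 10 members are named. Of each list, the 3 genes with the largest mean change called with both siRNAs in the same direction are named, and for Stt3a, Stt3b and Ostc the 5 genes most alike.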

Additional observations from a re-analysis of the deposited data

Results flagged for a closer look

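For Stt3b and Rpn1, among the 10 members, the change differed between the siRNAs by a test of the difference itself. The change of Stt3b with siRNA 878 minus that with siRNA 644 was -0.54 on the log2 scale (edgeR quasi-likelihood test, adjusted p = 0.0121), with means of 192 ± 12.6 CPM with 878 and 279 ± 3.10 CPM with 644 (SD, n = 3 each). The same difference for Rpn1 was 0.34 (edgeR adjusted p = 0.0492), with means of 799 ± 26.7 CPM with 878 and 630 ± 25.3 CPM with 644 (SD, n = 3 each). Both calls were lost in an edgeR fit of these 2 groups alone (adjusted p = 0.107 for Stt3b and 0.208 for Rpn1). They were also lost with the replicate block (edgeR adjusted p = 0.0792 for Stt3b and 0.195 for Rpn1). The NC libraries averaged 175 ± 7.87 CPM for Stt3b and 386 ± 7.79 CPM for Rpn1 (SD, n = 3 each), and for Stt3b the 878 and NC groups overlapped, with no call between them (edgeR adjusted p = 0.197). Nus1 averaged 6.70 CPM with 878 and 3.85 CPM with 644, a log2 difference of 0.80 that did not pass the test (edgeR adjusted p = 0.180). By library it had 8.01, 3.73 and 8.35 CPM with 878, and 3.93, 4.15 and 3.46 CPM with 644. Only 878 replicate 2 overlapped the 644 libraries, and 878 replicates 1 and 3 lay above all of them. The part of Nus1 level in either result was not tested.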

How the results depend on the processing

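Directions against NC were kept for every member under every alternative, except that Tusc3 with 878 ranged from -0.29 to 0.090 over fits leaving out 1 library. Between the siRNAs, members near 0 changed sign: Ostc (0.02) was -0.0057 with library sizes alone, -0.0075 with each limma fit, and -0.011 to 0.073 over fits leaving out 1 library; over those fits Dad1 ranged from -0.082 to 0.23 and Krtcap2 from -0.28 to 0.032. The cause was not tested. The 2 members called between the siRNAs became 1 with no low-count filter, 0 with the 2 groups alone, 0 with the replicate block, and 0 to 4 over fits leaving out 1 library. Genes called between the siRNAs (177) were 647 by DESeq2, 298 with library sizes alone, 5 with the 2 groups alone, 14 with the replicate block, 370 and 323 by limma with pseudocounts of 1 and 0.1, 1329 with GC and length offsets, and 12 to 2072 leaving out 1 library. Genes called with 644 (3710) ranged from 2343 (without NC replicate 1) to 6004 (without 878 replicate 2), and those with 878 (3696) from 2455 to 4824, with 5632 under the offsets. Against NC, members called stayed at 7 or 8 with each siRNA in these fits.

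The ratio of Stt3a to Stt3b differed by 0.21 with 644 alone and 0.93 with 878 alone, and that of Magt1 to Tusc3 by 0.98 with each; 3 libraries against 3 cannot pass the threshold. Permuting within replicate numbers (replicate block) left the differences at 0.57 and 0.98 with exact permutation p = 0.0741 and 0.0370 (adjusted p = 0.111 for both). Leaving out 1 library gave 0.48 to 0.65 for Stt3a to Stt3b, 0.92 to 1.03 for Magt1 to Tusc3 and 0.15 to 0.27 for Ostc to Krtcap2. The first pair of ratios no longer passed in 8 of these 9 tests (exact permutation, adjusted p = 0.0536 to 0.107), which have fewer arrangements. Their unadjusted p was the smallest possible in all 9, so the adjustment over 3 ratios decided which test passed. Correlations of same-numbered deviations ran from -0.69 to 0.55, and those of differently numbered deviations from -0.55 to 0.62. Since the libraries also differ in their length trend, these values cannot tell whether replicate numbers pair the samples. Depth limits Tusc3 most, at 244 to 489 estimated counts.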
